A study of Mus musculus with 3 samples.

Results

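The RNA regulators Nanos1, Nanos2, Nanos3, Dnd1 and Pum2 were followed in gonads dissected from male mouse embryos at E14.5. All array probes annotated with one of these 5 symbols were taken, which gave 8 of 41174 array probes and 5 of 19532 named genes. Nanos1 had 2 probes, Pum2 had 3, and Nanos2, Nanos3 and Dnd1 had 1 each. No filter on low values was applied, so every member was kept.

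The arrays compared 3 genotypes, and each was deposited as 1 column of values. The first was labelled Nanos2-/- Stra8-/-, lacking both genes. The second was Nanos2-/- Stra8+/-, lacking Nanos2 and heterozygous for Stra8. The control was Nanos2+/- Stra8+/-, so it too carried a mutant allele of each gene. The titles tie each column to replicates 1 and 2, but the separate arrays were not analysed here, and no difference below has a replicate error or a test. RNA came from whole gonads, in which fewer cells of a type and less RNA per cell cannot be told apart. The alleles are not described in the sources used here.

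NANOS proteins are RNA-binding proteins with a zinc finger that lower the stability or translation of bound transcripts, in part by recruiting the CCR4-NOT deadenylase complex. In mouse, NANOS3 protects migrating primordial germ cells from cell death, and NANOS2 takes over in germ cells of the fetal testis, where it represses meiosis and promotes the male programme. Nanos1 is dispensable for germ cell development in mouse. DND1 binds RNA together with NANOS2, and its loss in mouse depletes germ cells and gives rise to testicular teratomas on some strain backgrounds. PUM2 belongs to the Pumilio family, whose founding Drosophila member acts together with Nanos.

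Deposited values are linear ratios. Most probes lie near 1 in their middle column, so these appear to have been divided by a value of their own. This does not describe every probe, since 7552 of 41174 array probes lie below 0.7 in all 3 columns. The middle value of the Nanos2 probe is 0.397. A value can therefore be compared between columns for the same probe but not between probes. The presence of germ cell or testis markers could not be checked in absolute terms for the same reason. Differences are given on the log2 scale, and a difference of at least 1, that is 2-fold, was counted. The median difference over all array probes was 0.05 for the Nanos2-/- Stra8+/- column minus the control column (called Nanos2 loss here), and 0.19 for the column labelled Nanos2-/- Stra8-/- minus the control column (combined loss). It was 0.16 between the column labelled Nanos2-/- Stra8-/- and, subtracted from it, the Nanos2-/- Stra8+/- column (Stra8 loss on the Nanos2-null background). Nanos2 loss and combined loss share the control column, so their values are given side by side without a measure of agreement.

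The 250 bases before the annotated start of the 3 Nanos genes are shown because these paralogues gave the largest decrease and the largest increases among the members. The sequences are those of RefSeq for the mouse build GRCm38.p6, which matched 4 of the 5 members, and are written 5′ to 3′ on the strand of the gene. Capitals mark 3 motifs on either strand. The TATA box was searched as TATAAA. The CCAAT box was searched by the letters of its name. The GC box was searched as GGGCGG. Matches to 1 motif can overlap each other. The Nanos2 stretch is chr7:18987274-18987523 on the plus strand, that of Nanos1 is chr19:60755737-60755986 on the plus strand, and that of Nanos3 is chr8:84176553-84176802 on the minus strand.
Nanos2: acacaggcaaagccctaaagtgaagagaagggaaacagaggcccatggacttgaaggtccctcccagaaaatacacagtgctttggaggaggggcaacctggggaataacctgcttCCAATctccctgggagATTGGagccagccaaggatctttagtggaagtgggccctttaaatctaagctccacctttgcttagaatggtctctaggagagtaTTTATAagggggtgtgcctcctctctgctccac
Nanos1: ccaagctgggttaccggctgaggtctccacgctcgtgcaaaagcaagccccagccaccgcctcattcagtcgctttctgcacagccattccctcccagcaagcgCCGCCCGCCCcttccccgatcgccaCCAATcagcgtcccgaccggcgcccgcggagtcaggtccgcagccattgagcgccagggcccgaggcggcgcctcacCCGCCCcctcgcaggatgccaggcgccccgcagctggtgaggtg
Nanos3: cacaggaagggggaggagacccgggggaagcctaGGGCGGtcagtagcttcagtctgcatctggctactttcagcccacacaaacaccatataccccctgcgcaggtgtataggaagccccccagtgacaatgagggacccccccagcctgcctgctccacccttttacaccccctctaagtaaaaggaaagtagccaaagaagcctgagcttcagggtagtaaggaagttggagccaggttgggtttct

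The 3 upstream stretches differed in composition. The share of G and C was 50.8% for Nanos2, 70.4% for Nanos1 and 56.4% for Nanos3, against a median of 52.4% over 32851 promoters in the same table. Nanos2 held 2 CCAAT matches and 1 TATA box match, at positions -33 to -28 relative to the annotated start. The TATA box match lies on the strand opposite to the gene, so the gene strand reads TTTATA there. Nanos1 held 1 CCAAT match and 3 GC box matches, the first pair of which overlap. Nanos3 held 1 GC box match. Of all promoters, 12.4% held the TATA box letters, 33.8% the CCAAT letters and 32.7% the GC box letters within these 250 bases. These matches describe the sequence and were not set against binding data.

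**Figure D1:**
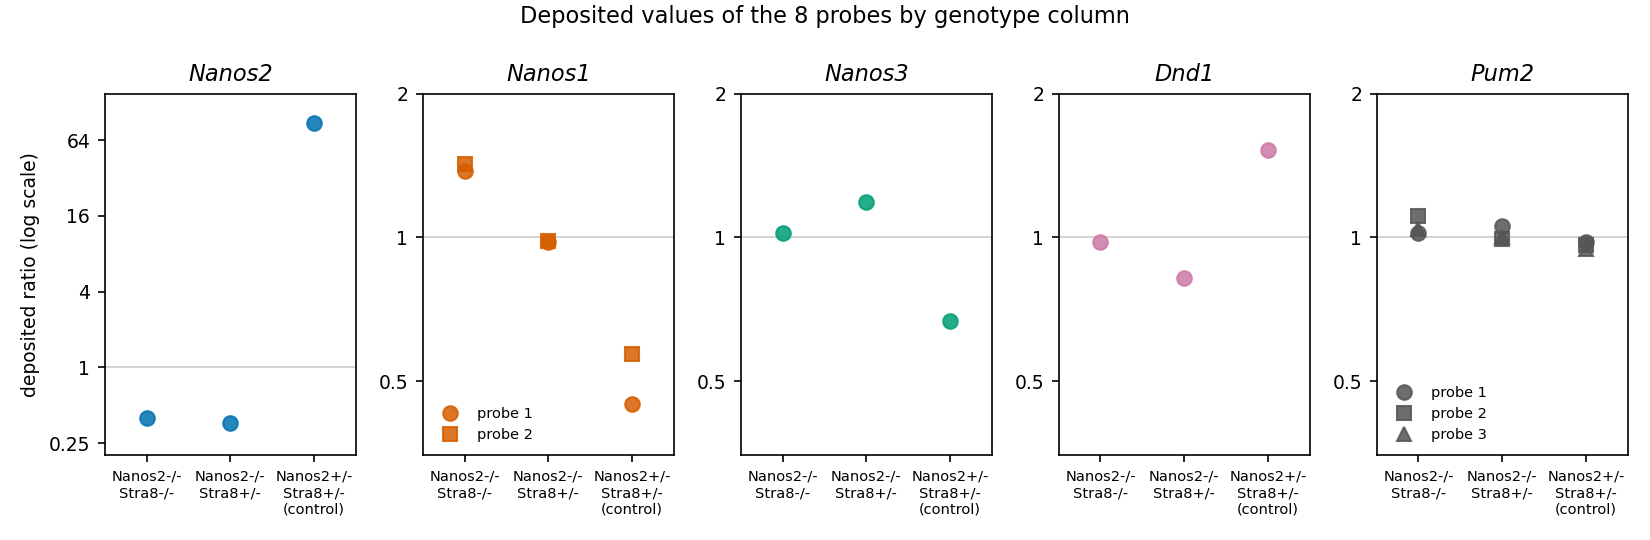
Deposited ratio (vertical axis, log scale) of each of the 8 probes in the 3 genotype columns (horizontal axis), with 1 panel for each gene and a separate axis range for Nanos2. Each point is 1 probe in 1 column and no error can be shown. Nanos2 stands at 87.2 in the control column and below 1 in both others, both Nanos1 probes and Nanos3 are lowest in the control column, Dnd1 is highest there, and the 3 Pum2 probes stay close to 1.

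Nanos2, the targeted gene, was examined first. Its probe, A_52_P624495, had a deposited value of 0.397 in the column labelled Nanos2-/- Stra8-/- and 0.364 in the Nanos2-/- Stra8+/- column, against 87.2 in the control column. The signal was thus high in the column that carries an intact allele and low in both others, as the Nanos2 labels call for. The log2 difference was -7.90 with Nanos2 loss and -7.78 in combined loss, and 0 of 41174 array probes were further below 0 in either comparison. The negative control probe had 0.454 in the column labelled Nanos2-/- Stra8-/- and 0.354 in the Nanos2-/- Stra8+/- column, against 0.352 in the control column, but whether its divisor is that of the Nanos2 probe is unknown. How far the low values lay from background cannot be read from the files, and the size of the decrease depends on it. The named genes nearest to the Nanos2 probe were Apoc2, which encodes an apolipoprotein, Clca1 and 4933417A18Rik, at distances of 2.63, 3.68 and 3.70, and 0 genes lay within 0.1. Between the column labelled Nanos2-/- Stra8-/- and the Nanos2-/- Stra8+/- column the Nanos2 probe differed by 0.12, close to the median of 0.16 over all probes.

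The Stra8 label could not be checked in the same way. The single Stra8 probe had a deposited value of 1.34 in the column labelled Nanos2-/- Stra8-/- and 1.13 in the Nanos2-/- Stra8+/- column, against 0.108 in the control column. It was not lower in the column labelled as lacking Stra8, and the sources used here do not place the probe relative to the deleted part. Directions drawn from that column rest on its label alone.

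Nanos1, a paralogue of Nanos2, was higher in both columns lacking Nanos2 by both of its probes. Probe 1, A_52_P201800, had a deposited value of 1.38 in the column labelled Nanos2-/- Stra8-/- and 0.977 in the Nanos2-/- Stra8+/- column, against 0.447 in the control column. Probe 2, A_52_P231232, had 1.42 in the column labelled Nanos2-/- Stra8-/- and 0.984 in the Nanos2-/- Stra8+/- column, against 0.571 in the control column. Both probes thus gave the same order, with the control column lowest and the column labelled Nanos2-/- Stra8-/- highest. With Nanos2 loss the log2 difference was 1.13 by probe 1, or 2.18-fold, and 0.78 by probe 2, or 1.72-fold. In combined loss it was 1.62 by probe 1, or 3.08-fold, and 1.32 by probe 2, or 2.49-fold. Relative to the median of all probes in combined loss the differences were 1.44 and 1.13. On the Nanos2-null background, the column labelled Nanos2-/- Stra8-/- was higher than the Nanos2-/- Stra8+/- column by 0.50 and 0.53.

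The disagreement between the Nanos1 probes was smaller than the differences themselves. The probes lay 0.34 apart with Nanos2 loss and 0.31 apart in combined loss. Over 5405 genes with 2 probes, the median distance between probes was 0.14 with Nanos2 loss, with a 95th percentile of 1.12, and 0.26 in combined loss, with a 95th percentile of 1.39. This distance measures how far probes disagree on the same RNA, not how far animals or arrays differ.

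The pattern of Nanos1 was shared by probes of olfactory receptor genes, which are known for odorant detection in the nose. The 3 genes whose pair of log2 differences lay nearest to probe 1 were the olfactory receptor genes Olfr536, Olfr649 and Olfr739, at distances of 0.02, 0.05 and 0.05 on the log2 scale over 3 columns. Olfr536 had a deposited value of 1.44 in the column labelled Nanos2-/- Stra8-/- and 0.998 in the Nanos2-/- Stra8+/- column, against 0.461 in the control column. Nearest to probe 2 were Pmaip1, a mediator of apoptosis, Ccdc122 and Olfr920. Within a distance of 0.1 lay 8 genes for probe 1 and 26 for probe 2.

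Olfactory and vomeronasal receptor probes were then taken as a group, a choice made after these values were seen. Their 1094 probes had a median log2 difference of 0.12 with Nanos2 loss and 0.41 in combined loss. At least 2-fold higher were 7.95% of them with Nanos2 loss and 16.8% in combined loss, against 2.51% and 4.59% of all array probes. At or above the first Nanos1 probe in combined loss lay 5.30% of the receptor probes and 1.36% of all array probes, and at or above the second lay 10.1% and 2.38%. With Nanos2 loss these shares were 5.85% and 1.93% for the first probe, and 12.8% and 3.995% for the second. Like both Nanos1 probes, 479 of the receptor probes were not below 0.7 in all 3 columns. Of these, 12.1% lay at or above the first Nanos1 probe in combined loss and 22.3% at or above the second. Among all array probes filtered in the same way these shares were 1.67% and 2.86%. For Nanos2 loss they were 11.9% and 23.4% of the receptor probes, against 2.17% and 4.09%. A probe below 0.7 in the control column passes this filter only through a column where it is higher. The filter thus favours such differences, and the larger shares after it are no separate evidence. The negative control probe differed by 0.01 with Nanos2 loss and by 0.36 in combined loss. The part that low signal plays in the Nanos1 difference was not tested.

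**Figure D2:**
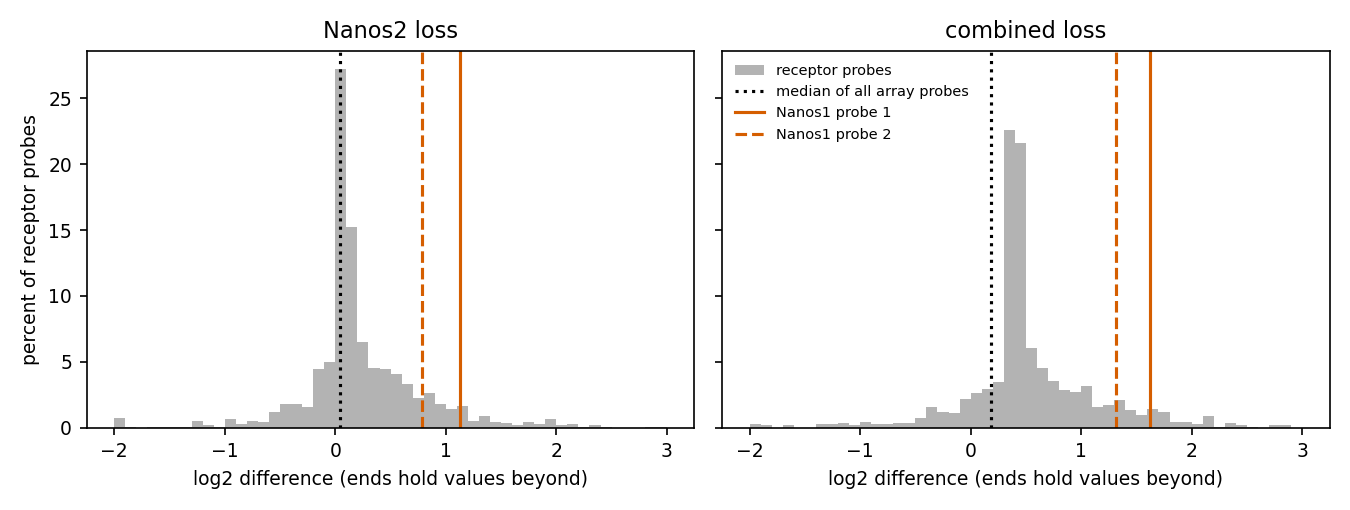
Percent of the 1094 olfactory and vomeronasal receptor probes (vertical axis) by log2 difference in bins of 0.1 (horizontal axis), for Nanos2 loss on the left and combined loss on the right. Orange lines are the 2 Nanos1 probes and the dotted line is the median of all array probes. Most receptor probes lie between 0 and 0.5, the Nanos1 probes lie in the upper tail, and the tail reaches past both of them.

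Nanos3, the paralogue of primordial germ cells, was higher in both columns lacking Nanos2, by less than 2-fold. Its probe, A_51_P105480, had a deposited value of 1.02 in the column labelled Nanos2-/- Stra8-/- and 1.19 in the Nanos2-/- Stra8+/- column, against 0.670 in the control column. The control column was the lowest, and unlike Nanos1 the Nanos2-/- Stra8+/- column was the highest. The log2 difference was 0.82 with Nanos2 loss and 0.61 in combined loss, or 0.42 after taking off the median of all probes in combined loss. On the Nanos2-null background it was -0.22. Nanos3 was 1.52-fold higher in combined loss, where 12.8% of all array probes were at least 1.5-fold higher.

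Dnd1, which encodes the RNA-binding partner of NANOS2, was the only member besides Nanos2 that was lower in both columns lacking Nanos2. Its probe, A_51_P285790, had a deposited value of 0.976 in the column labelled Nanos2-/- Stra8-/- and 0.821 in the Nanos2-/- Stra8+/- column, against 1.53 in the control column. The control column was the highest. The log2 difference was -0.89 with Nanos2 loss, or 1.86-fold lower, and -0.64 in combined loss, or 1.56-fold lower. Relative to the median of all probes the combined difference was -0.83. On the Nanos2-null background the column labelled Nanos2-/- Stra8-/- was 0.25 higher, close to the median of 0.16. Of all array probes, 3.71% were at least as far below 0 with Nanos2 loss and 8.89% in combined loss.

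Nanos3 and Dnd1 thus lay on opposite sides of the control column. Each rests on 1 probe, so no disagreement between probes can be given. For Nanos3 the nearest genes were Slitrk3, Gpr18 and Evx1, at distances of 0.03, 0.04 and 0.04, and 25 genes lay within 0.1. For Dnd1 they were Dppa4, a gene of pluripotent and germ cells, Zpbp2 and Coch, at distances of 0.01, 0.02 and 0.02, and 45 genes lay within 0.1. With 3 columns many genes share a pattern, so these neighbours are a description only.

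Pum2, the Pumilio family member, showed little difference between columns by any of its 3 probes, A_51_P228385, A_52_P138598 and A_52_P222685. Its deposited values ran from 1.02 to 1.11 in the column labelled Nanos2-/- Stra8-/-, from 0.994 to 1.06 in the Nanos2-/- Stra8+/- column and from 0.946 to 0.979 in the control column. As deposited, the control column was thus slightly lower than both others by every probe, but with each column centred on its median the second probe turned to -0.01 with Nanos2 loss and the first to -0.03 in combined loss. With Nanos2 loss the log2 differences lay between 0.05 and 0.11, against a median of 0.05 for all probes, and in combined loss between 0.06 and 0.20, against 0.19. The 3 probes lay 0.07 apart with Nanos2 loss and 0.15 apart in combined loss. Among 2077 genes with 3 probes the median distance was 0.28 and 0.61. Between 1058 and 1946 genes lay within 0.1 of a Pum2 probe, the flat middle of the array.

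**Figure D3:**
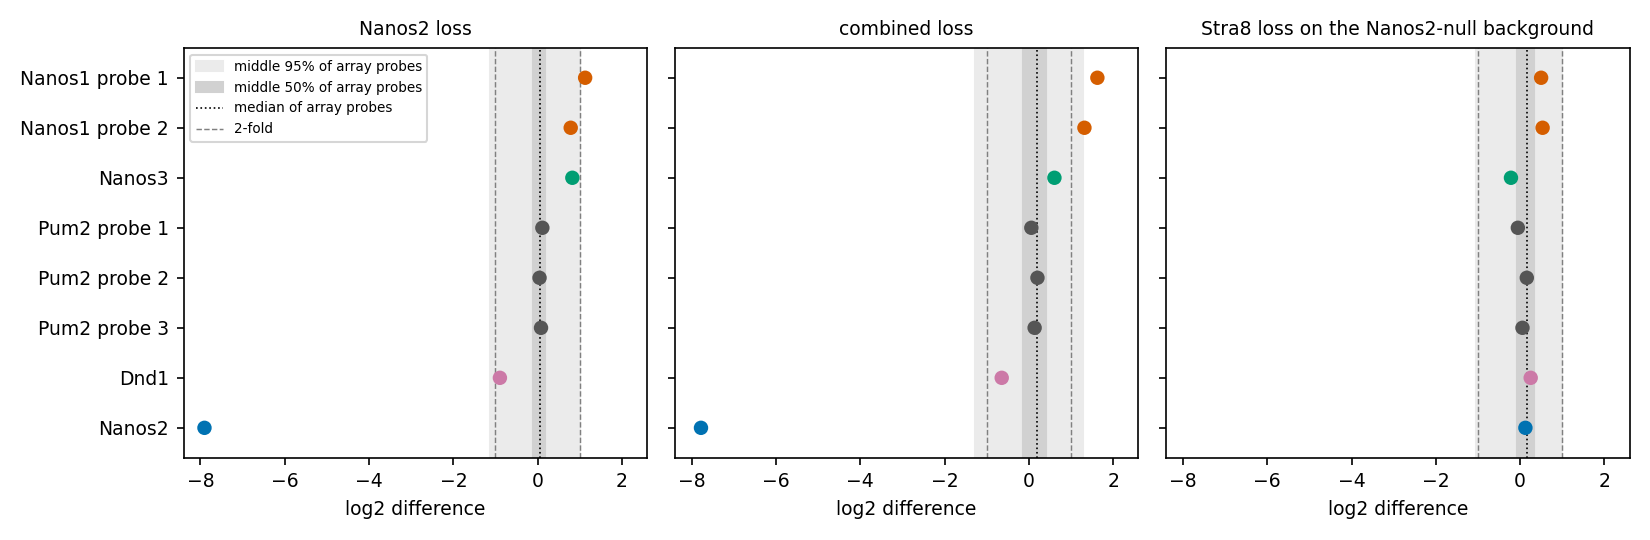
Log2 difference (horizontal axis) of each of the 8 probes (rows) for Nanos2 loss, combined loss and Stra8 loss on the Nanos2-null background. Grey bands hold the middle 50% and 95% of all 41174 array probes, the dotted line is their median and dashed lines mark 2-fold. Nanos2 lies at -7.90 and -7.78 in the first pair of panels, both Nanos1 probes pass 2-fold in combined loss, and no probe reaches 2-fold in the third panel.

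Counted over the 8 probes, 1 was at least 2-fold higher with Nanos2 loss, a Nanos1 probe, and 1 was at least 2-fold lower, that of Nanos2. Over all array probes these shares were 2.51% and 3.09%. In combined loss 2 probes were at least 2-fold higher, both of Nanos1, and 1 was lower, that of Nanos2, against 4.59% and 4.39% of all array probes. On the Nanos2-null background 0 of 8 probes were at least 2-fold higher or lower in the column labelled Nanos2-/- Stra8-/-, against 2.44% and 2.78%. At 1.5-fold, the members with a difference were the same with Nanos2 loss and in combined loss, namely both Nanos1 probes and Nanos3 upward, and Dnd1 and Nanos2 downward. The share of all array probes at 1.5-fold was 6.31% upward and 6.81% downward with Nanos2 loss, and 12.8% and 9.97% in combined loss. At 1.5-fold on the Nanos2-null background the count was again 0 in both directions, against 7.23% and 7.17%.

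Genes around these regulators were described by list, with the median over the probes of a gene as its value. The lists hold 130 genes, of which 124 were measured, and some genes stand in several lists. Over all genes, the median log2 difference was 0.04 with Nanos2 loss and 0.19 in combined loss. The share at least 2-fold higher was 2.35% with Nanos2 loss and 4.24% in combined loss, and the share at least 2-fold lower was 3.16% and 2.82%. The lists are short, so a list without a gene at 2-fold is no result about that list.

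Among relatives and partners of Pumilio, 8 of 9 genes were measured, and none reached 2-fold with Nanos2 loss or in combined loss. The median was 0.28 with Nanos2 loss and 0.30 in combined loss. Dazl, a germ cell translational activator whose human relative DAZ binds PUM2, differed by 0.62 and 0.49. Cpeb1, which controls polyadenylation in the cytoplasm, differed by 0.73 and 0.87. Boll, another DAZ family gene, differed by 0.23 and 0.55. Cpeb2, a relative of Cpeb1, differed by 0.34 with Nanos2 loss.

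Factors that NANOS2 works through at the RNA level were described next. Of 20 CCR4-NOT and other deadenylation genes, none reached 2-fold with Nanos2 loss, against 2.35% higher and 3.16% lower among all genes. The list median was 0.03. The values ran from -0.22 for Cnot3, a subunit of the complex, to 0.36 for Btg3, of the BTG adaptor family. Cnot1, the scaffold subunit that NANOS2 contacts, had a gene value of 0.13 with Nanos2 loss, although its 3 probes ran from -0.65 to 0.21. Cnot7, a catalytic subunit, had 0.09 with Nanos2 loss and 0.22 in combined loss. In combined loss the list median was 0.16. Against 4.24% of all genes, 1 of the 20 was at least 2-fold higher. This was Btg4, an adaptor of the complex in oocytes, whose single probe had a deposited value of 1.05 in the column labelled Nanos2-/- Stra8-/- and 0.261 in the Nanos2-/- Stra8+/- column, against 0.268 in the control column. The value thus differs in 1 column of the 3. Cnot11, another subunit, had the lowest gene value in combined loss, at -0.55, with probes 0.63 apart.

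Of 15 genes of P-bodies, the cytoplasmic granules of mRNA decay in which NANOS2 is found, 1 was at least 2-fold lower in each comparison with the control column. This was Patl2, a germline RNA-binding relative of a decapping activator, with a deposited value of 0.841 in the column labelled Nanos2-/- Stra8-/- and 0.883 in the Nanos2-/- Stra8+/- column, against 2.01 in the control column. The list median was 0.01 with Nanos2 loss and 0.03 in combined loss. Ddx6, a helicase of P-bodies, differed by -0.05 and -0.47. With Nanos2 loss, Dcp1b, a decapping cofactor, differed by -0.54 and Ago2, the slicer Argonaute, by 0.29. Lsm14a, a P-body protein, differed by 0.45 in combined loss.

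Candidate NANOS2 target transcripts were higher in both columns lacking Nanos2. The list was drawn up with earlier results of these data known, so its direction is no independent evidence. Of 8 genes, 5 reached 2-fold upward and 0 downward, in each comparison with the control column, and the median was 1.43 and 1.45. The genes were Stra8, the retinoic acid-induced gatekeeper of meiosis, Sohlh2, a germ cell transcription factor, Neurog3, a factor of differentiating spermatogonia, Sycp1, which links paired chromosomes in the synaptonemal complex, and Taf7l, a germ cell transcription factor subunit. Taf7l had deposited values of 1.14 and 1.16 by its 2 probes in the column labelled Nanos2-/- Stra8-/-, 1.01 and 0.995 in the Nanos2-/- Stra8+/- column, against 0.392 and 0.356 in the control column. Stra8 was counted among the 5 in combined loss too, although that column is labelled as lacking Stra8 and the label could not be checked. Sycp3, an axial element protein, differed by 0.26 with Nanos2 loss and 0.80 in combined loss. Prdm9, the methyltransferase that places recombination sites, differed by 0.05 and 0.36, against medians of 0.04 and 0.19 for all genes. The negative control probe differed by 0.01 and 0.36.

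Transcripts linked to DND1 showed no such difference. The 4 genes were Cdkn1a and Cdkn1b, which encode inhibitors of the cell cycle, Lats2, a Hippo pathway kinase, and Ezh2, a Polycomb methyltransferase. With Nanos2 loss their gene values lay between -0.04 and 0.20, and in combined loss between -0.25 and 0.16. The 3 probes of Cdkn1b disagreed in combined loss, from -0.38 to 0.68.

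Other germ cell RNA-binding proteins went both ways. Of 20 genes 19 were measured, with a median of -0.06 with Nanos2 loss and 0.14 in combined loss, and 1 gene was at least 2-fold lower in each. This was Tdrd9, a helicase of the piRNA pathway, with a deposited value of 0.906 in the column labelled Nanos2-/- Stra8-/- and 0.869 in the Nanos2-/- Stra8+/- column, against 2.72 in the control column. Tdrd1, another piRNA pathway gene, differed by -0.75 with Nanos2 loss. Elavl2, a neuronal and germ cell RNA-binding protein, differed by 0.72 with Nanos2 loss and 0.77 in combined loss, and its probes lay 0.00 and 0.23 apart.

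**Figure D4:**
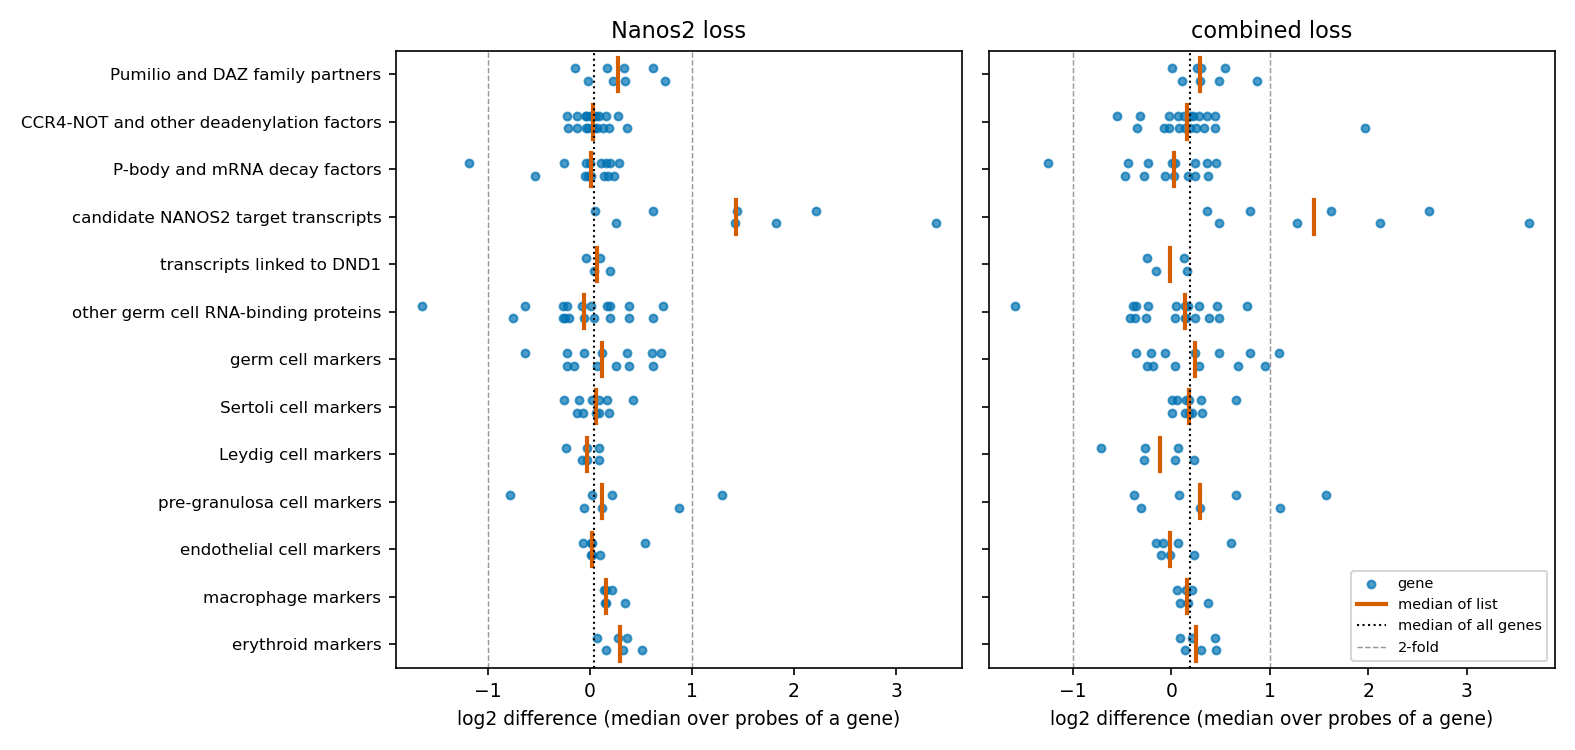
Log2 difference of each gene (horizontal axis, median over the probes of the gene) in 13 gene lists (rows) for Nanos2 loss on the left and combined loss on the right. Blue points are genes, orange bars list medians, the dotted line the median of all genes, and dashed lines 2-fold. The median of the candidate NANOS2 target transcripts lies at 1.43 and 1.45, and the other lists have medians between -0.11 and 0.30.

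Markers of the cell types in the gonad were described in the same way. Of 14 germ cell markers 13 were measured, with a median of 0.12 with Nanos2 loss and 0.24 in combined loss. They lay on both sides of 0, as Nanos3 and Dnd1 did. With Nanos2 loss they ran from -0.63 to 0.70, and none differed by as much as Nanos3 or Dnd1. In combined loss they ran from -0.36 to 1.09, so some lay above Nanos3 but none as low as Dnd1. This holds for the markers of this list only. Among germline genes of the other lists, Tdrd9 and Patl2 were lower than Dnd1 in each comparison with the control column. Sohlh2 and Taf7l were higher than Nanos3 in each. Prdm1, needed to specify primordial germ cells, differed by 0.70 with Nanos2 loss and 1.09 in combined loss, where it was the only germ cell marker at 2-fold. Tfap2c, another factor of primordial germ cells, differed by 0.61 and 0.95, while Mael, a piRNA pathway gene, differed by -0.63 and -0.36. Ddx4, the germ cell helicase also known as VASA, differed by -0.22 with Nanos2 loss and 0.24 in combined loss.

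Pre-granulosa markers, genes of the supporting cells of the ovary, also went both ways. Their median over 7 genes was 0.11 with Nanos2 loss and 0.29 in combined loss. Gng13, a G protein subunit, differed by 1.29 and 1.57, and Rspo1, a secreted activator of WNT signalling, by 0.87 and 1.11, so 1 gene reached 2-fold with Nanos2 loss and 2 in combined loss. Irx3, a homeobox gene, differed by -0.78 and -0.31, and Fst, which encodes the Activin inhibitor follistatin, by 0.22 and -0.38. Foxl2, a transcription factor of granulosa cells, differed by 0.02 and 0.65.

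No gene of the other cell type lists reached 2-fold with Nanos2 loss or in combined loss. The 11 Sertoli cell markers had medians of 0.06 and 0.18, with Gata1, a transcription factor of Sertoli and red blood cells, at 0.42 and 0.65. The 6 measured Leydig cell markers had medians of -0.03 and -0.11, with Nr5a1, a regulator of steroid-producing cells, at -0.71 in combined loss by probes 1.35 apart. The 7 endothelial markers had medians of 0.02 and -0.01, with Pecam1, an adhesion molecule of vessels, at 0.54 and 0.61. The 6 measured macrophage markers had medians of 0.16 and 0.16, with Cx3cr1, a chemokine receptor, at 0.34 with Nanos2 loss. The 6 measured erythroid markers had medians of 0.30 and 0.26, with Hba-x, an embryonic globin, at 0.51 and 0.45. The part of cell numbers in the Nanos3 and Dnd1 differences was not tested.

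On the Nanos2-null background, few list genes differed between the column labelled Nanos2-/- Stra8-/- and the Nanos2-/- Stra8+/- column. The median was 0.26 for the candidate NANOS2 target transcripts, against 0.17 for all genes, and none of these 8 genes reached 2-fold. Btg4 was the only list gene at least 2-fold higher, at 4.02-fold, and 0 were at least 2-fold lower, against 2.04% and 1.03% of all genes. Xrn1, the exonuclease that degrades decapped mRNA, had a gene value of -0.65, with probes 1.13 apart.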

How the data were processed

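RNA from whole gonads was amplified to Cy3-labelled cRNA and hybridised to Agilent 1-colour arrays, per the labels' protocols. The submitters' processing notes name Agilent Feature Extraction 9.5. The deposited values are linear ratios in 3 columns. No source used here states the authors' normalization or how replicates 1 and 2 were combined. A divisor per probe was inferred from the values of most probes, and does not describe every probe. Signal over background is unknown, and precision is limited by the number of arrays.

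Of 41267 entries, 93 control spots were left out. The platform annotation gave 1 symbol for 32664 probes, several for 45 and none for 8465. RefSeq (GRCm38.p6) held the gene identifier of 32524 probes and changed 0 symbols. Values were log2-transformed without a pseudocount, and columns were subtracted with Python 3.11.15, pandas 2.3.3 and numpy 2.4.6. No test was possible with 1 column per group. The counting step was run on simulated data with added shifts above the threshold and little noise. This checks the code only and says nothing of the error in these data. Likeness was the Euclidean distance between pairs of log2 differences. The rule for named genes took the members, the 3 largest absolute differences per list and comparison, list genes at 2-fold, and the 3 nearest genes per member probe. Some genes that this rule takes, among them the neighbours of Pum2, are not named. Others were chosen after their values were seen or, for some list genes, for their known role. Members and lists were chosen with earlier results of these data known. Of 130 list genes 124 were measured.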

Additional observations from a re-analysis of the deposited data

How the results depend on the processing

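Centring, quantile normalization, a floor at the negative control, a pseudocount of 0.1 and leaving out probes below 0.7 in all 3 columns were tried. Of 120 member differences so recomputed, 112 moved by less than the median distance between 2 probes of a gene. Many of these could not move that far. No member probe was below 0.7 in all 3 columns, so leaving out such probes changed none of its 24 differences. Centring shifted every probe of a comparison by the same amount, which was smaller than the median distance between 2 probes. Its 24 outcomes were thus fixed in advance. The floor could change only Nanos2, the member with a value below the negative control. The 8 that moved further were 3 of 24 under the pseudocount and 5 of 24 under quantile normalization. No member difference of 2-fold or more changed sign, and both Nanos1 probes, Nanos3 and Dnd1 kept their direction in all 3 comparisons under these settings. The first Nanos1 probe had a log2 difference of 0.98 with Nanos2 loss under the pseudocount, so the count of probes at least 2-fold higher was 0 in place of 1. It was also 0 counted per gene, since the median of the Nanos1 probes is below 1, and in combined loss the count per gene was 1 in place of 2. At 1.5-fold the counts with Nanos2 loss were 3 higher and 2 lower, and in combined loss 2 lower. Quantile normalization put Nanos2 at -5.55 with Nanos2 loss and -5.65 in combined loss, because it replaces the top value of each column by a mean over columns. List genes at 2-fold numbered 6 higher and 2 lower with Nanos2 loss, 9 and 2 in combined loss, and 1 and 0 on the Nanos2-null background. At 1.5-fold they numbered 12 and 5 with Nanos2 loss, 17 higher in combined loss, and 2 and 3 on the Nanos2-null background. These are counts out of 124 measured list genes, and the share of all genes at 1.5-fold was not computed. Over all array probes it was 6.31% and 6.81% with Nanos2 loss, 12.8% higher in combined loss, and 7.23% and 7.17% on the Nanos2-null background. Quantile normalization left 1 list gene lower in combined loss, and the cause was not tested. The list median that moved was that of the candidate NANOS2 target transcripts, at 1.24 with Nanos2 loss under the pseudocount. No paired analysis was possible because each genotype had 1 column, and for the same reason no replicate could be left out.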

Other observations

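Pum3, a distant relative of Pum2 with a role in the nucleolus, had 5 probes of which 1 stood apart. That probe, A_51_P321286, had a deposited value of 0.628 in the column labelled Nanos2-/- Stra8-/- and 1.27 in the Nanos2-/- Stra8+/- column, against 0.930 in the control column. The other 4 probes stayed between 0.908 and 1.11 in every column. On the Nanos2-null background the first probe was 2.03-fold lower, while the others had log2 differences from -0.10 to 0.13. Nr5a1, a regulator of steroid-producing cells, likewise had 1 probe at -1.39 in combined loss and another at -0.04.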
